A study of Mus musculus with 31 samples.

Results

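The 75 genes described here carry the symbols Mrpl or Mrps, given to proteins of the large and small subunit of the mitochondrial ribosome. Mrps30, Mrps18a and Mrps36 depart from that naming, as described below. They were measured in mouse gastrocnemius, the large fast-twitch muscle of the calf. Members were the protein-coding genes with such a symbol and a number after it that had at least 10 counts in at least 3 libraries. Of 82 rows of the count tables with such a symbol, 75 were members, out of 14107 genes that passed the same count filter and 39017 rows in all. The other 7 rows were 5 pseudogenes, Mrpl53, which had 0 counts in every library, and Mrps15. Mrps15 was left out because it lies within 10 Mb of Trim63 on chromosome 4, where genes inherited together with the targeted allele can differ between genotypes. No member was lost to the count filter in some libraries only, since all 75 had at least 10 counts in all 31 libraries.

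RNA sequencing was carried out on gastrocnemius of mice that were male or female, wild type or MuRF1 knockout, and fed chow or a high-fat diet. MuRF1 is the muscle ubiquitin ligase encoded by Trim63, and the labels do not say how the knockout allele was made. All mice ate chow from weaning, a subset was moved to a diet with 45% fat from lard at 8 weeks of age, and muscle was taken from all of them at 30 weeks. The groups were male wild type on chow (4 libraries), male knockout on chow (4), male wild type on high fat (4), male knockout on high fat (3), female wild type on chow (4), female knockout on chow (4), female wild type on high fat (4) and female knockout on high fat (3). One further library could not be given a group and enters no comparison.

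The mitochondrial ribosome translates the few mRNAs that mitochondrial DNA encodes, all of which are membrane subunits of the respiratory chain and of ATP synthase. Its RNAs come from mitochondrial DNA, but all of its proteins are encoded in the nucleus, made by cytosolic ribosomes and imported. Compared with a bacterial ribosome it holds many added proteins that have no bacterial counterpart. Muscle is rich in mitochondria, so these genes are background to oxidative capacity in this tissue.

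By role, 28 members encode large-subunit proteins with a bacterial counterpart and 21 encode large-subunit proteins found only in mitochondria. A further 16 encode small-subunit proteins with a bacterial counterpart, and 9 encode small-subunit proteins found only in mitochondria. Mrps30 and Mrps18a, named for the small subunit, were counted with the large subunit, where their proteins sit. Mrps18a was counted there as found only in mitochondria, while its paralogs Mrps18b and Mrps18c were counted as having a bacterial counterpart. Mrps36 was given no ribosomal role, since its protein is now known as a component of the 2-oxoglutarate dehydrogenase complex. The members lie on 17 chromosomes, with 11 of them on chromosome 11.

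Total counts ranged from 9342028 to 14919379 per library, and the members together took between 0.234% and 0.349% of them. Trim63 was at 0.47 to 6.24 CPM (the usual scaling of counts to a common library total) in the 14 knockout libraries and at 108.54 to 253.61 CPM in the 16 wild-type libraries. The animal number that names a library's data and the number in its record's title differed in 19 records, and each library was given the group of the title that holds its animal number. For 4 libraries this is another group than the record's own title names. Male knockout high-fat replicate 3, titled female wild type on chow, had Trim63 at 1.8 CPM, Xist at 1.15 and Ddx3y at 34.05. In the female wild-type chow libraries Xist was at 205.49 to 267.71 CPM and Ddx3y at 0. Trim63 was at 221.42 CPM in female wild-type chow replicate 4 and 119.2 in female wild-type high-fat replicate 4, both titled knockout. It was at 0.87 in female knockout chow replicate 4, titled female wild type on high fat. In all 4 libraries Trim63 went with the genotype of the group given here and not with that of the record's own title. These genes do not check the diet. Several libraries stood apart. Krt10, a keratinocyte gene, was above 20 CPM in female wild-type chow replicate 3 and female knockout chow replicates 1 and 3, and genes of mitochondrial DNA took only 5.4% and 5.55% of counts in female wild-type high-fat replicate 3 and female knockout high-fat replicate 2. Trim63 was lowest among wild types in male chow replicate 3 (108.54 CPM), female high-fat replicate 4 (119.2) and female chow replicate 1 (130.09). Counts that these sets change are given without them. The labels do not say that libraries of a group came from separate litters or cages, so p-values measure the spread between these libraries.

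Scaled per kilobase of exon, the highest mean levels over the 30 grouped libraries were those of Mrps21 (70.2 CPM per kb), Mrps28 (50.8) and Mrps23 (48). Mrps21 and Mrps28 encode small-subunit proteins with bacterial counterparts, and Mrps23 a mitochondria-specific one. The lowest levels per kilobase were those of Mrps35 (1.84), Mrpl19 (3.1) and Mrps10 (3.29), although the ribosome holds the proteins of all 6 genes in equal number. Exon length here is the union of annotated exons, between 607 and 8631 bases for the members, so a long or rarely used 3′ end lowers the value per kilobase.

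The members moved together from library to library. After the group means were removed, the median correlation between 2 members over the 30 libraries was 0.62, with quartiles at 0.46 and 0.74, and 2749 of 2775 pairs were above 0. The first principal component of these deviations held 63.3% of their variance. These libraries share depth, scaling and RNA composition, so the correlation is a description of the libraries. Mrpl51, a mitochondria-specific large-subunit protein, followed the mean of the other members most closely (0.96), and Mrps34 least (0.21). The small and large subunits kept their relation. The mean log2 CPM of the large-subunit genes was above that of the small-subunit genes by 0.47 ± 0.03 (SD, n = 30), with a range of 0.39 to 0.54.

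The mean log2 CPM over the 75 genes, called the member score, differed between groups by less than a doubling and had a different order in each sex. In males on chow it was 4.97 ± 0.108 in wild type (SD, n = 4) and 5.12 ± 0.0725 in knockout (n = 4). In males on high fat it was 4.89 ± 0.21 in wild type (n = 4) and 4.85 ± 0.0538 in knockout (n = 3). Males on chow were thus at or above males on high fat, with overlap in wild type.

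In females the order was the opposite. On chow the score was 4.73 ± 0.105 in wild type (SD, n = 4) and 4.69 ± 0.0673 in knockout (n = 4), the lowest of the 8 groups. On high fat it was 5.02 ± 0.132 in wild type (n = 4) and 5.02 ± 0.311 in knockout (n = 3). The 8 female chow libraries ran from 4.59 to 4.84, and the 7 female high-fat libraries from 4.83 to 5.38. The spread of the last group comes from replicate 2, at 5.375, against 4.829 and 4.844 for its other libraries. In males on high fat, wild-type replicate 3 was at 5.196 and its 3 group mates between 4.731 and 4.813.

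**Figure D1:**
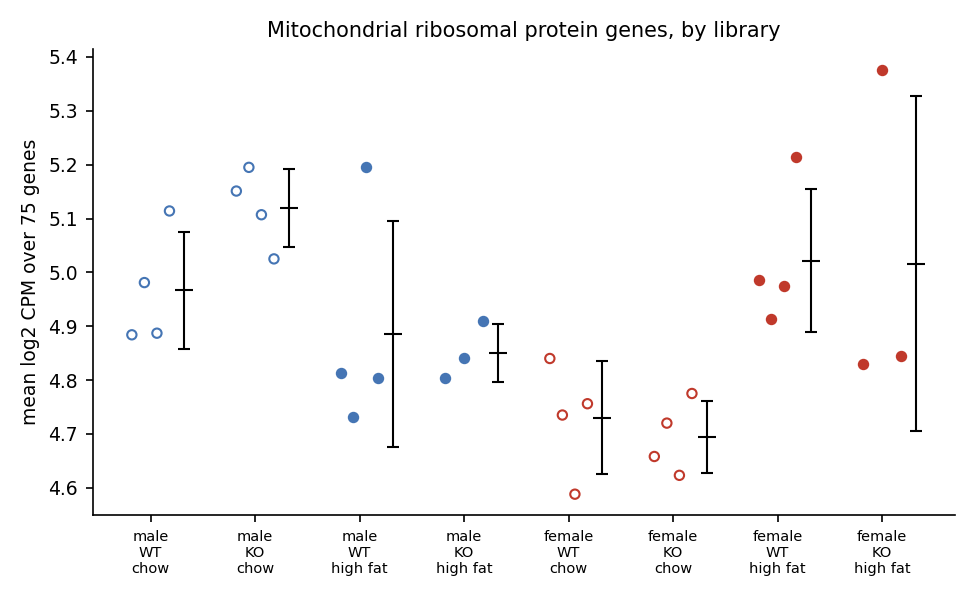
Mean log2 CPM over the 75 genes (y axis) for each of the 30 grouped libraries, by group (x axis; WT, wild type; KO, Trim63 knockout; blue, males; red, females; open points, chow; filled points, high fat), with the group mean and SD beside the points. The female chow groups have the lowest means, with libraries from 4.59 to 4.84 that overlap those of both male high-fat groups and of female knockout high fat, and female knockout high fat holds the highest single library, at 5.375.

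For most of these genes, the difference between high fat and chow was more positive in females than in males. The test was the diet-by-sex contrast, which takes the log2 difference of high fat over chow in females, averaged over genotypes, and subtracts the same difference in males. With edgeR's quasi-likelihood test and Benjamini-Hochberg adjustment over all genes tested, 59 of the 75 members were called higher in this contrast at an adjusted p below 0.05, and 0 lower. Over all 14107 genes, 22.2% were called higher and 22.9% lower. The median of the members was 0.50 on the log2 scale and that of all genes -0.02, and 71 members were above 0. Mrps12, Mrpl38, Mrpl4, Mrpl14, Mrps6 and Mrpl28 had the smallest p-values.

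The sign of each separate diet difference shows the same split. For 54 of the 75 members, high fat was lower than chow in both male genotypes and higher than chow in both female genotypes, a pattern seen in 19.8% of all genes tested. The count of called members ranged from 49 to 64 when each library was left out in turn. The lowest count was without female knockout high-fat replicate 2, where the median was 0.39. It was 44 without the 3 libraries high in Krt10 (16.8% of all genes higher) and 53 without the 2 of lowest mitochondrial share (19%).

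**Figure D2:**
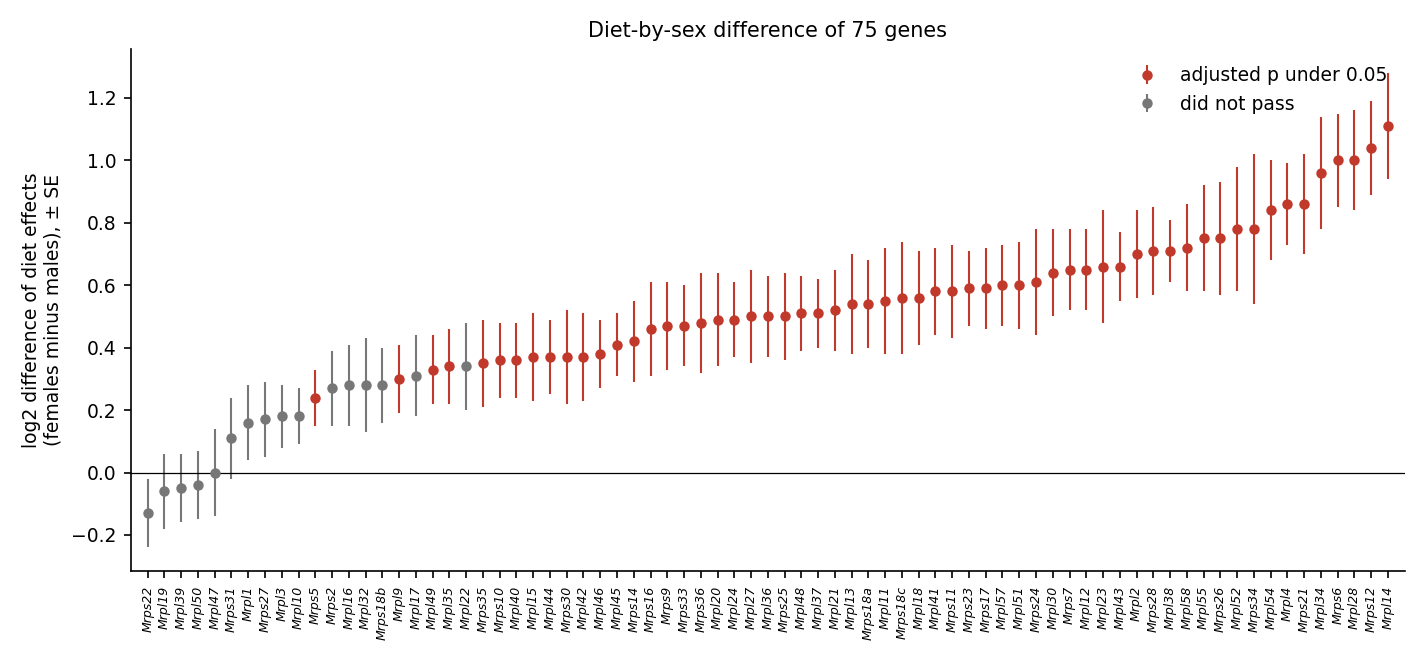
Diet-by-sex difference of each of the 75 genes (y axis, log2 of high fat over chow in females minus the same in males; bars, SE), ordered by its size (x axis). The 59 genes at an adjusted p below 0.05 (red) run from 0.24 to 1.11, and the 16 that did not pass (grey) from -0.13 to 0.34.

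Mrps12 encodes the homolog of bacterial protein S12, which lies at the decoding centre. In females on chow its CPM was 19.39, 16.64, 15.05 and 16.1 in wild type and 15.41, 17.64, 17.5 and 17.23 in knockout. In females on high fat it was 26.5, 25.73, 35.63 and 32.13 in wild type and 22.96, 34.45 and 24.82 in knockout. All 7 female high-fat libraries lay above all 8 female chow libraries.

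In males on chow Mrps12 was at 19.95, 24.69, 21.39 and 29.22 CPM in wild type and at 28.45, 26.67, 27.9 and 25.3 in knockout. In males on high fat it was at 19.42, 20.47, 29.96 and 20.33 in wild type and at 19.86, 18.05 and 20.39 in knockout. The knockout males did not overlap between diets, whereas the wild-type males did. The diet-by-sex difference of Mrps12 was 1.04 ± 0.15 (log2, SE; edgeR adjusted p = 4.54e-06).

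Mrpl38, a mitochondria-specific protein of the large subunit, showed the same order with less spread. Female chow libraries ran from 29.03 to 36.51 CPM (median 32.98) and female high-fat libraries from 40.34 to 55.71 (median 46.17), without overlap. Male chow libraries ran from 35.8 to 51.07 (median 43.12) and male high-fat libraries from 31.89 to 46.21 (median 35.76), with overlap. Its diet-by-sex difference was 0.71 ± 0.10 (log2, SE; edgeR adjusted p = 5.63e-06).

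Mrpl14 encodes the homolog of bacterial L14, a protein at the face where the subunits meet. It had the largest diet-by-sex difference of the members, 1.11 ± 0.17 (log2, SE; edgeR adjusted p = 1.11e-05). Female chow libraries ran from 19.31 to 28.09 CPM (median 23.19) and female high-fat libraries from 24.15 to 50.34 (median 39.96). The ranges overlapped because female knockout high-fat replicate 1 was at 24.15, while replicate 2 of the same group held the top value of 50.34. Male chow libraries ran from 30.54 to 47.49 (median 39.44) and male high-fat libraries from 25.55 to 41.32 (median 28.03).

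Mrpl4 encodes the homolog of bacterial L4, which lines the tunnel through which the new chain leaves. Its libraries ran from 24.96 to 31.21 CPM in females on chow (median 27.95) and from 36.13 to 57.19 in females on high fat (median 43.91), without overlap. They ran from 31.4 to 44.04 in males on chow (median 40.53) and from 30.73 to 48.22 in males on high fat (median 33.25). The difference was 0.86 ± 0.13 (log2, SE; edgeR adjusted p = 9.71e-06).

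Mrps6 and Mrpl28 had differences close to that of Mrps12. For Mrps6, the homolog of a bacterial small-subunit protein, it was 1.00 ± 0.15 (log2, SE; edgeR adjusted p = 1.11e-05), with medians of 8.54 CPM in females on chow and 11.41 in females on high fat, against 11.86 and 9.09 in males. For Mrpl28, a large-subunit protein with a bacterial counterpart, it was 1.00 ± 0.16 (edgeR adjusted p = 2.38e-05), with medians of 37.52 and 53.6 CPM in females against 51.79 and 41.54 in males. The female diets did not overlap for either gene.

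**Figure D3:**
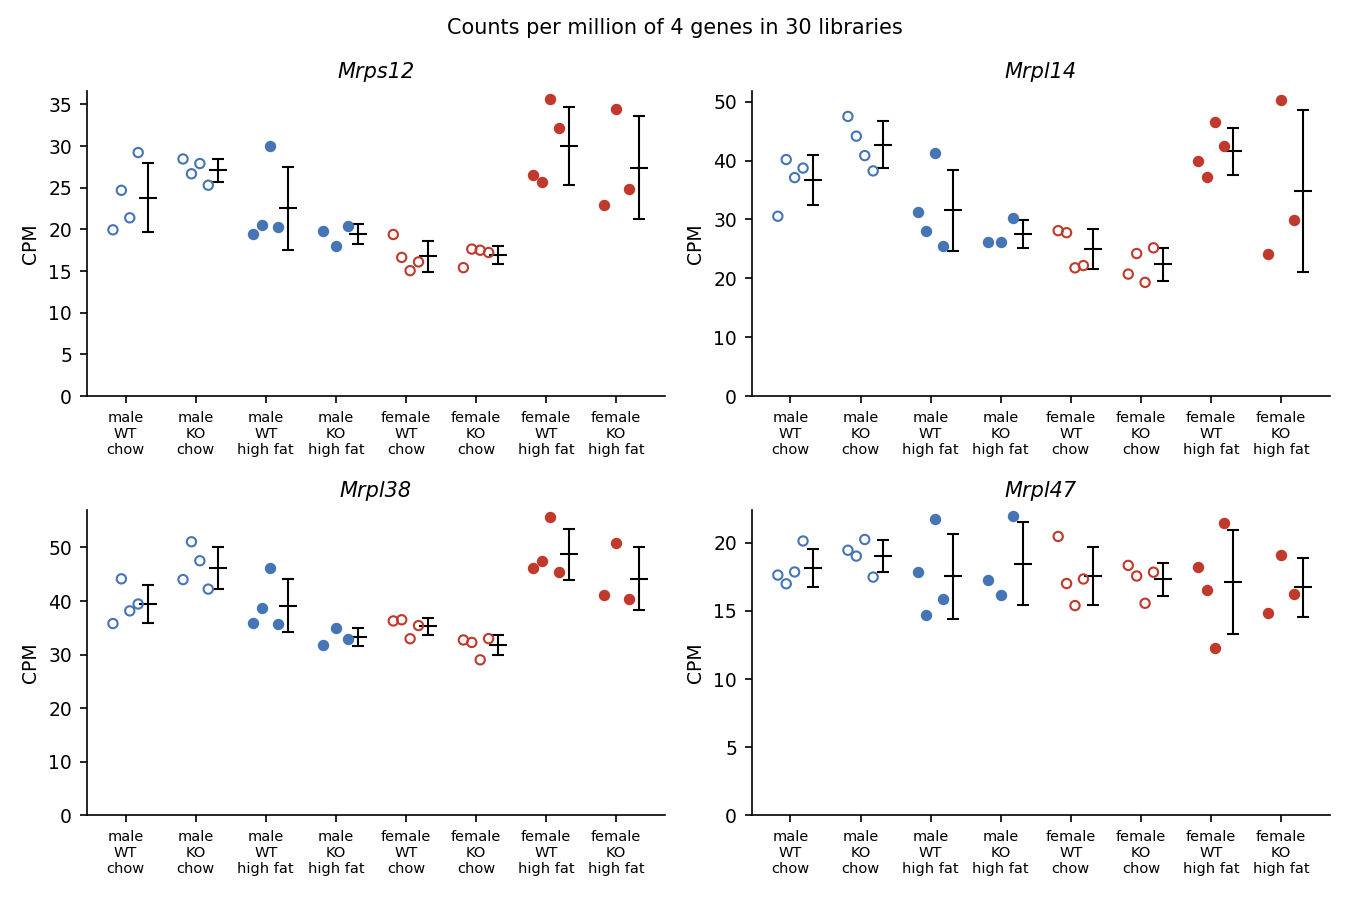
CPM (y axis, from 0) of Mrps12, Mrpl14, Mrpl38 and Mrpl47 in each of the 30 grouped libraries by group (x axis; colours and fills as for the member score), with group mean and SD. Mrps12 in females lies at 15.05 to 19.39 CPM on chow and 22.96 to 35.63 on high fat, whereas Mrpl47 in females lies at 15.39 to 20.46 on chow and 12.31 to 21.45 on high fat.

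The diet-by-sex difference was spread over both subunits and over conserved and mitochondria-specific proteins. Of the large-subunit proteins with a bacterial counterpart, 19 of 28 were called higher (median 0.49). Of the mitochondria-specific large-subunit proteins, 19 of 21 were called higher (median 0.51), among them Mrpl54 at 0.84 ± 0.16 and Mrpl55 at 0.75 ± 0.17. Of the small-subunit proteins with a bacterial counterpart, 14 of 16 were called higher (median 0.57), and of the mitochondria-specific ones 6 of 9 (median 0.47). Mrps36, whose protein serves in the tricarboxylic acid cycle, was also called higher at 0.48 ± 0.16 (edgeR adjusted p = 0.0168). Whether these groups of roles differ from each other was not tested.

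Of the 6 genes at the ends of the range of levels, 5 were called in this contrast. Among those with the highest level per kilobase, the diet-by-sex difference was 0.86 ± 0.16 for Mrps21, 0.71 ± 0.14 for Mrps28 and 0.59 ± 0.12 for Mrps23 (log2, SE), all called. Among those with the lowest, it was 0.36 ± 0.12 for Mrps10 and 0.35 ± 0.14 for Mrps35, both called. For Mrpl19 it was -0.06 ± 0.12 (edgeR adjusted p = 0.716).

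The 16 members that were not called held 9 of the large-subunit proteins with a bacterial counterpart. Their values were graded from 0.34 to -0.13. Mrpl17 (0.31 ± 0.13, edgeR adjusted p = 0.0504), Mrpl22, Mrps18b and Mrps2 had adjusted p-values between 0.0504 and 0.0567. Mrpl16 and Mrpl32 were both at 0.28, and Mrpl3, Mrpl10, Mrps27, Mrpl1 and Mrps31 between 0.11 and 0.18. At the other end lay Mrps22 (-0.13 ± 0.11), Mrpl19, Mrpl39 (-0.05 ± 0.11), Mrpl50 (-0.04 ± 0.11) and Mrpl47 (0.00 ± 0.14), which are named here because of their values. Mrps22 and Mrpl39 encode mitochondria-specific proteins, and Mrpl47 the homolog of bacterial L29. Mrpl47 ran from 15.39 to 20.46 CPM in females on chow and from 12.31 to 21.45 in females on high fat, and from 16.99 to 20.24 and 14.7 to 21.94 in males.

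Mrpl12 and the Mrps18 genes were followed in each comparison. Mrpl12 encodes the stalk protein that recruits translation factors, and had a diet-by-sex difference of 0.65 ± 0.13 (log2, SE; edgeR adjusted p = 0.000335). The 3 paralogs Mrps18a, Mrps18b and Mrps18c encode related proteins that sit at different places of the ribosome. The difference was 0.54 ± 0.14 for Mrps18a (adjusted p = 0.00188, edgeR) and 0.56 ± 0.18 for Mrps18c (adjusted p = 0.0116), and 0.28 ± 0.12 for Mrps18b (adjusted p = 0.055). In females Mrps18a went from a median of 40.0 CPM on chow to 49.26 on high fat, Mrps18b from 13.14 to 15.47 and Mrps18c from 15.64 to 17.37. The ranges of the female diets overlapped for each of the 3 paralogs. Mrps30, a large-subunit protein despite its name, differed by 0.37 ± 0.15 (edgeR adjusted p = 0.0415).

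Within each sex and genotype, diet was tested on its own. In wild-type females, 24 of the 75 members were higher on high fat and 0 lower (median 0.28, a fold of 1.21), where 13.1% of all genes were called higher. Mrpl4 rose by 0.74 ± 0.12 (log2, SE; edgeR adjusted p = 0.000361), Mrps12 by 0.83 ± 0.14 and Mrpl34, a small large-subunit protein, by 0.88 ± 0.17. Mrpl43, Mrpl38 and Mrpl14 also rose, by 0.57 ± 0.11, 0.46 ± 0.10 and 0.73 ± 0.16, although Mrpl38 was at -0.01 with GC content and length corrected. By role, 9 of 28 conserved and 8 of 21 mitochondria-specific large-subunit genes rose, and 5 of 16 and 2 of 9 of the small-subunit genes. The count was 13 without female wild-type chow replicate 3 and 14 without female wild-type high-fat replicate 3. It was 12 without the libraries high in Krt10 (6.85% of all genes higher). Without the 4 libraries whose title names another group it was 11 (7.8% of all genes higher). It was 0 when all 31 libraries were grouped by their own titles, where 0.0354% of all genes were called higher. That grouping puts a library with Xist at 1.15 CPM in female wild type on chow. It also puts a library with Trim63 at 0.87 CPM in female wild type on high fat.

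In knockout females, 26 of the 75 members were higher on high fat and 0 lower (median 0.32, a fold of 1.25), where 10.6% of all genes were called higher. Mrps12 rose by 0.69 ± 0.15 (log2, SE; edgeR adjusted p = 0.00411), Mrpl38 by 0.47 ± 0.10, Mrpl28 by 0.74 ± 0.17 and Mrpl4 by 0.59 ± 0.13. Mrpl54 rose by 0.66 ± 0.17 and Mrps6 by 0.61 ± 0.16. This count depended on which libraries were kept. Without female knockout high-fat replicate 2 it was 0, with a median of 0.11, and the share over all genes was not set beside it. It was also 0 without the libraries high in Krt10, where the share over all genes fell to 0.287%. Without the 2 libraries of lowest mitochondrial share it was 1, where 2.28% of all genes were called higher. It was 13 without female knockout chow replicate 3, 14 without replicate 1 of that group and 17 without replicate 2. Of the members called in wild-type females and in knockout females, 16 were called in both, which is 66.7% of the first list and 61.5% of the second. The same overlap was not counted over all genes, so these shares are no result about the members.

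In wild-type males, 0 members were called for diet with edgeR (median -0.08), where 0.34% of all genes were called in either direction, and 3 members had an unadjusted p below 0.05. DESeq2 also called 0. The smallest p-values were those of Mrps6 (-0.40 ± 0.15, adjusted p = 0.266), Mrps33 (-0.28 ± 0.13) and Mrps22 (0.23 ± 0.11). The median in wild-type males was -0.21 without wild-type high-fat replicate 3 and -0.02 without wild-type chow replicate 4. In knockout males, 3 members were lower on high fat and 0 higher, where 1.91% of all genes were called lower. They were Mrpl38, which fell by 0.47 on the log2 scale (SE 0.11, edgeR adjusted p = 0.0121), Mrpl14, which fell by 0.63 (SE 0.17), and Mrpl43, a mitochondria-specific large-subunit protein, which fell by 0.39 (SE 0.11). The median was -0.28 and 31 members had an unadjusted p below 0.05. The count of called members in knockout males was 0 without knockout chow replicate 2 or knockout high-fat replicate 1, 1 without knockout chow replicates 1 or 3 or knockout high-fat replicate 2, 9 without knockout chow replicate 4, 8 without wild-type high-fat replicate 3, 5 without female wild-type high-fat replicates 3 or 4 and 13 without female knockout high-fat replicate 2. The wild-type and female libraries enter that comparison through the shared estimate of the spread. It was 15 without the 2 libraries of lowest mitochondrial share (5.43% of all genes lower). DESeq2 called 8 (3.52% of all genes lower).

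Across the 75 members, the genes lowest on high fat in knockout males were the genes highest on high fat in knockout females. Pearson's r between both log2 differences over the 75 genes was -0.81 and Spearman's rho -0.79. Over all 14107 genes they were -0.47 and -0.61, and for the members without female knockout high-fat replicate 2 Pearson's r was -0.67. In wild types the values over the members were -0.03 and 0.08, and over all genes -0.26 and -0.25. The wild-type values were not recomputed without male wild-type high-fat replicate 3, so the genotypes cannot be compared on them. The sexes share no animals, but genes within these libraries are not independent, so these values describe the 75 genes only.

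**Figure D4:**
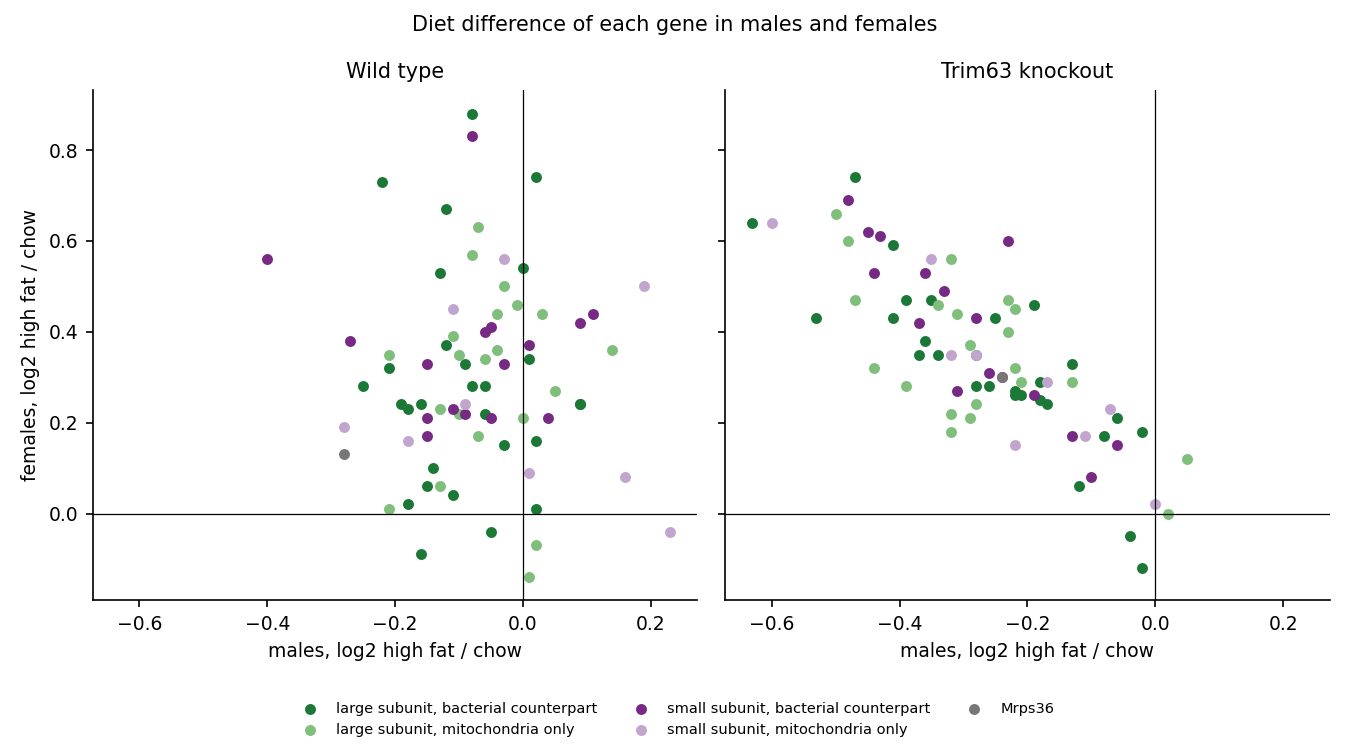
Log2 of high fat over chow in males (x axis) and in females (y axis) for each of the 75 genes, in wild type (left) and knockout (right), coloured by role. Most points lie at the upper left, where the difference is negative in males and positive in females, and in knockout they fall along a descending line (r = -0.81).

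When diet was averaged over sexes and genotypes, 0 members were called with edgeR (median 0.07), where 0.815% of all genes were called in either direction. There were 14 members with an unadjusted p below 0.05, and DESeq2 called 1. Mrpl4 (0.23 ± 0.06, edgeR adjusted p = 0.0658), Mrps12 (0.24 ± 0.07) and Mrps11 (0.23 ± 0.08) had the smallest p-values.

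Loss of MuRF1 was not followed by a called difference in these genes. Averaged over sexes and diets, 0 of 75 members were called by edgeR (median 0.02, 1 with an unadjusted p below 0.05), where 4.46% of all genes were called. Mrps2 was at 0.14 ± 0.06 (edgeR adjusted p = 0.17), Mrps36 at 0.16 ± 0.08 and Mrpl18 at 0.12 ± 0.07. DESeq2 also called 0 for this average. Without the 3 wild-type libraries of lowest Trim63 the count was 1.

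In males on chow, 6.79% of all genes were called for genotype, and 0 members were called there by edgeR or DESeq2. Yet 69 of the 75 members were higher in the knockout (median 0.16, against -0.01 for all genes), and 5 had an unadjusted p below 0.05. Mrpl54 was at 0.43 ± 0.15 (edgeR adjusted p = 0.0886), Mrpl55 at 0.41 ± 0.16 and Mrpl38 at 0.23 ± 0.10. Without male wild-type chow replicate 4 the count was 1. In these same groups, 5 of 6 fibroblast (median -1.21), 4 of 6 macrophage (median -0.94), 5 of 6 endothelial (median -0.67) and 1 of 5 tendon markers (median -0.82) were called lower in the knockout. The summed CPM of the muscle fibre markers was 160000 ± 22100 in wild type and 197000 ± 18200 in knockout (SD, n = 4 each), with 0 of 11 called (median 0.31). The part of these markers in the members' shift was not tested.

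The remaining genotype comparisons gave no called member with edgeR. In males on high fat, 0 were called (median -0.05, 2 with an unadjusted p below 0.05), where 0.276% of all genes were called. In females on chow, 0 were called (median -0.03, 0 with an unadjusted p below 0.05), where 0.113% were called. In females on high fat, 0 were called (median 0.02, 1 with an unadjusted p below 0.05), where 0.0709% were called. DESeq2 called 0 members in all 3. The smallest p-values were those of Mrpl38 (-0.23 ± 0.11, edgeR adjusted p = 0.446), Mrpl38 again (-0.15 ± 0.10, adjusted p = 1) and Mrpl43 (-0.24 ± 0.11, adjusted p = 0.629), in that order of groups.

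The genotype difference itself was not called as different between sexes or diets. In the genotype-by-sex contrast 0 members were called by edgeR (1 with an unadjusted p below 0.05) where 0.0354% of all genes were, and Mrps5 was at -0.21 ± 0.09 (edgeR adjusted p = 0.418). In the genotype-by-diet contrast 0 were called (4 with an unadjusted p below 0.05) where 0.106% of all genes were, and Mrpl43 was at -0.30 ± 0.11 (edgeR adjusted p = 0.434). DESeq2 called 0 in both. With 3 or 4 libraries a group, a p above the threshold does not show that the groups were alike.

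Averaged over diet and genotype, females were lower than males in 13 of the 75 members and higher in 0 (median -0.09), where 14.7% of all genes were called lower. The members' share is near that background, so the count is no result about these genes, and the values below are a description. Mrps18b fell by 0.20 on the log2 scale (SE 0.06, edgeR adjusted p = 0.00856), Mrps27 by 0.19 (SE 0.06), Mrpl51 by 0.24 (SE 0.07) and Mrps30 by 0.23 (SE 0.07). Mrpl21 and Mrpl20, large-subunit proteins with bacterial counterparts, fell by 0.20 (SE 0.06) and 0.21 (SE 0.07). Mrps18b and Mrps27 were among the members not called for diet by sex, and 7 of these 13 were called there. The count ranged from 5, without male wild-type high-fat replicate 3, to 31, without female knockout high-fat replicate 2. It was 6 without female knockout chow replicate 3, female knockout high-fat replicates 1 or 3, female wild-type high-fat replicate 2, male knockout chow replicate 2 or male knockout high-fat replicates 2 or 3, 7 without male wild-type chow replicate 4, and 4 with upper-quartile scaling. It was 4 without the libraries high in Krt10 (11.4% of all genes lower) and 31 without the 2 libraries of lowest mitochondrial share (15.8%). This average is over diet effects that differ between the sexes.

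Genes that serve the same ribosome were followed as lists. Of the 5 mitochondrial ribosomal proteins with other symbols, 3 were called higher in the diet-by-sex contrast and 0 lower (median 0.37). They were Aurkaip1 (0.68 ± 0.13, edgeR adjusted p = 0.000125), Gadd45gip1 (0.74 ± 0.20) and Dap3 (0.34 ± 0.11). Of 26 ribosome assembly factors, 16 were called higher and 1 lower (median 0.39), led by Rcc1l (0.65 ± 0.11), Rbfa (0.71 ± 0.15), which binds the maturing small subunit, and the rRNA methyltransferase Mrm2 (0.76 ± 0.17).

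Lists of factors that work with the ribosome stand beside 22.2% of all genes called higher. Of 16 mitochondrial translation factors, 3 were called higher and 1 lower (median 0.05), with the elongation factors Tufm (0.50 ± 0.12) and Tsfm (0.75 ± 0.18) and the insertase Oxa1l (0.39 ± 0.11). Of 20 mitochondrial tRNA synthetases, 7 were called higher and 1 lower (median 0.22), with Sars2 at 0.69 ± 0.17. Of 12 factors of mitochondrial DNA replication and transcription, 4 were called higher and 0 lower (median 0.06), with the RNA polymerase Polrmt at 0.54 ± 0.13. Differences between the lists were not tested.

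The mRNAs the mitochondrial ribosome translates did not share this direction. Of 13 mRNAs of mitochondrial DNA, 0 were called higher and 2 lower (median -0.34), where 22.9% of all genes were called lower. The lower calls are not above that share, so they are no result about these mRNAs as a list. Called lower were mt-Nd5 (-1.5 ± 0.38, edgeR adjusted p = 0.00303) and mt-Nd2 (-0.74 ± 0.30), subunits of complex I. The summed share of genes of mitochondrial DNA had a median of 11.5% in females on chow and 9.09% in females on high fat, with the lowest library at 5.4%, against 11.0% and 12.6% in males. With those genes taken out before scaling, 56 members were called in the diet-by-sex contrast, where 21% of all genes were called higher and 23.9% lower.

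The nuclear genes of the respiratory chain and of the cytosolic ribosome had the members' direction. Of 81 nuclear-encoded subunits of oxidative phosphorylation, 71 were called higher and 1 lower (median 0.67), with Atp5d at 1.02 ± 0.15, Ndufa11 at 0.98 ± 0.15 and Cox5b at 0.99 ± 0.15. Of 82 cytosolic ribosomal proteins, 68 were called higher and 1 lower (median 0.54), with Rpl28 at 0.92 ± 0.18. Among 11 regulators of mitochondrial biogenesis, 1 was called higher and 2 lower. Esrra, a nuclear receptor, was at 0.54 ± 0.13, Gabpa, an ETS factor, at -0.46 ± 0.11, and the coactivator Ppargc1a at -0.88 ± 0.25.

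Markers of muscle fibres and of other cell types moved in the same contrast, in which 22.2% of all genes were called higher and 22.9% lower. Of 11 muscle fibre markers, 7 were called higher and 0 lower (median 0.54), with Acta1 at 0.93 ± 0.12. Of 6 fibroblast markers 0 were called higher and 5 lower (median -1.14), of 6 macrophage markers 0 and 5 (median -0.86), of 6 adipocyte markers 0 and 5 (median -1.61), of 5 tendon markers 0 and 4 (median -2.14), and of 5 Schwann cell markers 0 and 4 (median -1.23). Endothelial markers gave 1 and 2 of 6, erythrocyte markers 0 and 3 of 5, keratinocyte markers 0 and 1 of 6, and satellite cell markers 1 and 0 of 4.

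The summed CPM of the muscle fibre markers ran from 116000 to 138000 in females on chow and from 140000 to 193000 in females on high fat, and from 145000 to 221000 and 124000 to 171000 in males on chow and high fat. The summed CPM of the fibroblast markers ran from 1030 to 1630 and from 396 to 934 in females, and from 149 to 900 and 500 to 1040 in males. Tendon markers ran from 239 to 462 and 70.7 to 270 in females, and from 88.4 to 189 and 143 to 245 in males. No marker of any list was at 0 in all libraries. The part of cell composition in the members' diet-by-sex difference was not tested, and fewer cells of a type and less RNA per cell cannot be told apart in whole-muscle RNA.

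**Figure D5:**
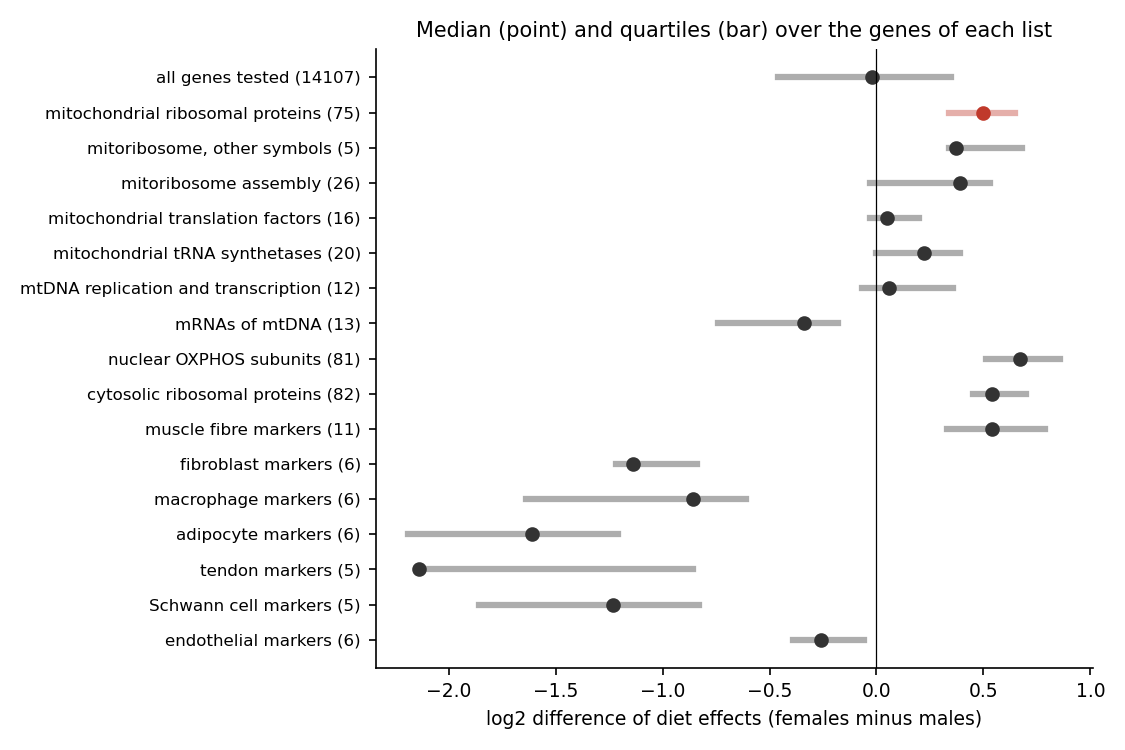
Median (point) and quartiles (bar) of the diet-by-sex difference (x axis, log2, females minus males) over the genes of each list (y axis, number of genes tested in brackets; OXPHOS, oxidative phosphorylation; mtDNA, mitochondrial DNA). The mitochondrial ribosomal proteins (red) lie at 0.50 and all genes at -0.02, while fibroblast, adipocyte and tendon markers lie at -1.14, -1.61 and -2.14.

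The size of the difference varied with the make-up of the transcript. Split by GC content of the longest transcript, the 25 members of lowest GC (38.6 to 46.9%) had a median diet-by-sex difference of 0.37 and 17 called, the middle 25 of 0.48 and 19 called, and the 25 of highest GC (52.2 to 60.4%) of 0.70 and 23 called. Split by exon length, the shortest 25 (607 to 1664 bases) had a median of 0.65 and 24 called, the middle 25 of 0.42 and 17 called, and the longest 25 (3332 to 8631 bases) of 0.37 and 18 called. Libraries also differed in how far counts rose with GC content. This trend is the smoothed log2 deviation from gene means at high minus low GC. For females on chow it was -0.18 ± 0.109 in wild type and -0.26 ± 0.0503 in knockout (mean, SD). On high fat it was 0.442 ± 0.439 and 0.2 ± 0.123. For males it was -0.0423 ± 0.221 and 0.0405 ± 0.0845 on chow. On high fat it was 0.012 ± 0.161 and -0.193 ± 0.0953. With a correction for GC content in each library, 57 members were called, where 18.4% of all genes were called higher and 22.2% lower. With GC content and length both corrected, 42 were called higher and 1 lower, with a median of 0.27. Over all genes that setting called 15.9% higher and 20.3% lower.

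The promoters are shown because the members moved together while a few did not. Sequences are those of RefSeq on GRCm38.p6 (mm10), which gave a window from 250 bases before to 50 after the annotated start for 66 of the 75 members and for 10096 of the genes tested. Shown are up to 150 bases that end just before the start, on the strand of the gene. Capitals mark the motif named. Each gene is the member with the smallest p in the diet-by-sex contrast that had a match there and a single annotated window. It also had no protein-coding gene reaching into it from the other side, and non-coding genes were not checked.
Mrps12, chr7:28741822-28741971, minus strand, CCAAT boxes in capitals: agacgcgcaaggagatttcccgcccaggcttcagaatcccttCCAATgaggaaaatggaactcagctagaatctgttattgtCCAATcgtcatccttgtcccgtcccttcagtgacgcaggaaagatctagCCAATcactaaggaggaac
Mrps26, chr2:130563607-130563756, plus strand, ETS motif in capitals (reverse complement): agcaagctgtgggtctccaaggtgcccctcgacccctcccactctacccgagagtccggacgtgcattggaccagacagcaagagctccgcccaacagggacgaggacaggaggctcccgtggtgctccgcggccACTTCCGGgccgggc
Mrpl17, chr7:105811088-105811237, minus strand, NRF1 motif in capitals: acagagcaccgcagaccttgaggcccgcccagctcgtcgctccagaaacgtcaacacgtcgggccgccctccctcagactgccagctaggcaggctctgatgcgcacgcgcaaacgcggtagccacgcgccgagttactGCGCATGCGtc

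The CCAAT boxes of Mrps12 begin 108, 68 and 19 bases before the start. The ETS motif of Mrps26 begins 15 bases before it, and the NRF1 motif of Mrpl17 11 bases before it. These are RefSeq starts. In GENCODE M21, Mrps26 starts at base 130563742 and Mrpl17 at base 105811099, which puts both of these motifs inside the gene. Mrps12 is the member of smallest p (1.04 ± 0.15), Mrps26 was called higher at 0.75, and Mrpl17 was not called, at 0.31 ± 0.13.

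Over the whole windows and both strands, the ETS motif CCGGAAGT was found in 11 of 66 members (16.7%, against 8.68% of genes with a window). The NRF1 motif GCGCATGCG was found in 7 (10.6% against 3.99%) and the YY1 motif AAGATGGCG in 8 (12.1% against 3.46%). In all, 25 members held at least 1 of these 3 motifs. The SP motif GGGGCGGGG was in 19.7% of members and 24.6% of genes, the E-box CACGTG in 7.58% and 11.6%, TATAAA in 7.58% and 9.06%, and CCAAT in 36.4% and 42.5%. None of these motifs contains another, and a match is a description and not a bound site.

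Of the 7 members with the NRF1 motif, 1 was called higher in the diet-by-sex contrast (median 0.28), while 50 of the 59 without it were (median 0.51). This split was noticed after the values were seen and was given no test. With the ETS motif 8 of 11 were called (median 0.56), and with the YY1 motif 7 of 8 (median 0.50).

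Many of these genes start beside another gene that is read in the opposite direction. Within 1000 bases, 33 of the 75 members (44.0%) had a protein-coding gene starting head to head with them, against 15.2% of the 12843 protein-coding genes tested. Of 27 such neighbours that were tested and are not members, 12 were called higher in the diet-by-sex contrast and 1 lower (median 0.30), where 22.2% of all genes were called higher. The start of Mrps12 lies 172 bases from that of Sars2, the mitochondrial seryl-tRNA synthetase, which was at 0.69 ± 0.17. Mrpl46 and Mrps11 are each other's neighbour, with starts 412 bases apart, and both were called, at 0.38 and 0.58. The start of Mrpl47 (0.00 ± 0.14) lies 615 bases from that of Ndufb5, which it overlaps. Ndufb5, a subunit of complex I, was called higher at 0.57 ± 0.16. In all, 23 members overlap another protein-coding gene, and reads of such pairs may be shared if the counting did not use strand, which the labels leave unstated.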

How the data were processed

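The authors deposited raw read counts per gene, 1 table per library. Per the labels' protocols, polyA RNA with an integrity number above 8 was made into stranded libraries and sequenced with 150 bp paired-end reads. The tools and build named in the submitters' processing notes are bcl2fastq, featureCounts and mm10. For the aligner, annotation release and strand setting, nothing is stated in the labels. Gene models are GENCODE M21, and rows without a symbol held 0.107% of counts.

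Genes with at least 10 counts in at least 3 libraries were fitted with edgeR 4.0.16 (R 4.3.3, TMM scaling, robust quasi-likelihood test) on 30 libraries with 1 mean per group. Adjusted p-values are Benjamini-Hochberg over all genes tested, within each of 14 contrasts, with calls below 0.05. SEs were derived from the F statistic. CPM are TMM-scaled, except for Trim63, Xist, Ddx3y and Krt10, which are scaled to the plain library total. The fit was tested on simulated data. Alternatives were DESeq2 1.42.0, other scalings and filters, GC correction, a replicate block, other groupings, and each library left out. Values without doubtful libraries, with mitochondrial DNA genes left out, or corrected for length were added after seeing the data.

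Named members are up to 6 of smallest p in each direction per contrast (3 where none was called), Mrpl12, Mrps12, Mrps30, Mrps18a, Mrps18b and Mrps18c, and the 3 highest and 3 lowest per kilobase. Members and lists were chosen with earlier results of these data known.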

Additional observations from a re-analysis of the deposited data

Results flagged for a closer look

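The difference between diets was not the same in females and males, by the test of that difference. In the diet-by-sex contrast 59 of the 75 members were called higher with edgeR, with a median of 0.50 on the log2 scale. Over all genes 22.2% were called higher. Among the members of smallest p in it, those followed in every comparison and those of highest or lowest level, it was called for Mrps12 (1.04), Mrpl14 (1.11), Mrps6 (1.00), Mrpl28 (1.00), Mrpl4 (0.86), Mrps21 (0.86), Mrpl38 (0.71), Mrps28 (0.71), Mrpl12 (0.65), Mrps23 (0.59), Mrps18c (0.56), Mrps18a (0.54), Mrps30 (0.37), Mrps10 (0.36) and Mrps35 (0.35).

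Single libraries stood away from their group mates for a few members. Male wild-type high-fat replicate 3 was high for Mrps12 (29.96 CPM, others 19.42 to 20.47), Mrps18b (20.0, others 14.19 to 14.91), Mrpl12 (61.67, others 43.8 to 46.56) and Mrps30 (28.39, others 21.31 to 21.97). Male knockout chow replicate 4 was low for Mrpl28 (44.38, others 60.07 to 63.05), and replicate 2 was high for Mrpl43 (38.56, others 35.12 to 35.62). Female wild-type high-fat replicate 4 was high for Mrpl43 (45.7, others 39.27 to 39.99). These are 7 of 78 groups of 4 values looked at, where chance gives about 1 in 20 for each. The 78 are not independent, since the members move together and most of the 7 come from male wild-type high-fat replicate 3. Groups of 3 libraries were not looked at in this way.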

How the results depend on the processing

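Results were recomputed under 15 other settings and with each of 30 libraries left out. The diet-by-sex count of 59 ranged from 43 to 61 over the settings and from 49 to 64 with a library left out, with medians of 0.27 (GC content and length corrected) to 0.50 and 0.39 to 0.57. These ranges count both directions, and the 43, with GC content and length corrected, include a member called lower. Among named members, 388 of 420 and 803 of 840 diet-by-sex values kept direction and call. Over all 70 named calls, 158 of 1050 values under other settings and 136 of 2100 with a library left out lost the call. With GC content and length corrected, Mrpl38 and Mrpl54 in wild-type females reversed, to -0.01 and -0.09. The cause was not tested.

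Other counts moved. The count for genotype averaged became 1 without the 3 wild-type libraries of lowest Trim63 and 1 with GC content and length corrected. For genotype in males on chow it was 1 without the 2 libraries of lowest mitochondrial share, and 0 to 1 with a library left out. The median for genotype in females on high fat was -0.19 without those 2 libraries and -0.18 to 0.12 with a library left out. For diet averaged it was 1 with DESeq2, 1 with the ungrouped library added to male knockout high fat, and 0 to 1 with a library left out.

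For diet in knockout males, the count of 3 became 8 with DESeq2, 1 with the records' own titles, 6 with the ungrouped library, 15 without the 2 libraries of lowest mitochondrial share, and 0 to 13 with a library left out. With the ungrouped library 4.15% of all genes were called lower there, against 1.91% in the main fit. In wild-type females 24 became 11 without the libraries of another title, 0 with the records' own titles (median 0.13), 12 without the libraries high in Krt10, and 13 to 33. In knockout females 26 became 47 with the records' own titles, 0 without the libraries high in Krt10, 1 without those of lowest mitochondrial share (median 0.11), 17 with GC content and length corrected, and 0 to 39 (medians 0.11 to 0.43). Over all genes, 14.6% were called higher there by own titles and 5.82% with GC content and length corrected, against 10.6% in the main fit. For sex averaged, 13 became 4 with upper-quartile scaling, 7 with no count filter, 20 without the libraries of another title, 4 without those high in Krt10, 31 without those of lowest mitochondrial share, and 5 to 31. Upper-quartile scaling moved the share of higher among all genes called for sex from 52.9% to 63.8%.

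Replicate numbers did not pair the libraries: deviations of 99 same-numbered pairs had a median correlation of 0.03, from -0.29 to 0.46. With a replicate block the diet-by-sex count was 59, where 22.8% of all genes were called higher and 23.5% lower. Groups of 3 or 4 libraries limit what could be called.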

Other observations

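The library without a group carries an animal number that no title holds. Its record's own title says male knockout on high fat, and its Trim63 was at 107.11 CPM. That is close to the lowest wild-type library (108.54 CPM) and far above the highest knockout library (6.24 CPM), so Trim63 does not go with the title's genotype. In it the members took 0.253% of counts, with Mrps12 at 22.12 CPM, Mrpl38 at 38.61, Mrpl14 at 30.31 and Mrpl4 at 37.03. With this library added to male knockout high fat all the same, 61 members were called in the diet-by-sex contrast. In that setting 23% of all genes were called higher and 23.5% lower.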
